A study of Rattus norvegicus with 10 samples.

Results

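The diacylglycerol kinases were followed through muscle of arthritic rats given acupuncture or a placebo. The members were the 9 family genes Dgka, Dgkb, Dgkd, Dgke, Dgkg, Dgkh, Dgki, Dgkq and Dgkz. Of these, 5 were found by symbol among 17221 transcripts of the expression table (Dgka, Dgkb, Dgkg, Dgki and Dgkz) and Dgkq was found by its RefSeq accession under an older locus name. Dgkd, Dgke and Dgkh were not analysed here. Of the 6 members measured, 4 passed the level required for testing, while Dgkg and Dgki stayed below it. That level was a CPM of 1 or more in each of 2 libraries from a group. CPM stands for reads of a transcript per 1e+06 reads of the library, with the library total scaled by the authors. The family was chosen by the levels of Dgkz, low at PLA_1h and at AP_34d, so the values of Dgkz are given as a description, with no test.

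All rats were female Wistar animals with collagen-induced arthritis, raised by immunization with bovine type II collagen in Freund's adjuvant, and all were shaved at the stimulation points. The RA_0 group was sampled before any therapy. The AP_1h and AP_34d groups received acupuncture, a short needle inserted and turned on both sides of the lower back and below the knee. The authors describe it as repeated sessions, every other day, with sampling at 1 hour and at 34 days. The PLA_1h and PLA_34d groups received saline injected into the peritoneum, described as given once a week, and were sampled at the same times. Each of the 5 groups held 2 libraries, made from poly-A selected RNA of muscle under the skin and sequenced on an Illumina HiSeq instrument. Rats were sacrificed for sampling, so no animal was followed over time. Where nothing states that both libraries of a group came from separate animals, p-values measure only the spread between these libraries, which may be technical.

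Diacylglycerol kinases add a phosphate to diacylglycerol, the lipid messenger released by phospholipase C, and turn it into phosphatidic acid. They thereby end the signal to protein kinase C and to the Ras activators of the RasGRP family, and their product is itself a signalling lipid. In skeletal muscle the zeta form is known to bind the syntrophins of the dystrophin complex, and in T lymphocytes the alpha and zeta forms are known to restrain signalling from the antigen receptor.

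The libraries held 5371687 to 8899521 reads assigned to transcripts, and 1 CPM stood for 4.19 to 10.1 reads. Markers of skeletal muscle summed to between 122361 and 326472 CPM in every library, so the labelled tissue was present throughout. The library PLA_34d replicate 1 stood apart: its T cell markers summed to 276 CPM against 7.37 to 37.9 in the 9 other libraries, and its B cell markers to 280 CPM against 0.477 to 7.98. All 11 T cell markers and all 5 B cell markers found in the table were highest in that library, as was 1 of 6 macrophage markers.

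Dgkz (diacylglycerol kinase zeta, NM_031143, rn4 chromosome 3, 76312721 to 76342603, minus strand) carries a nuclear localization motif, ankyrin repeats and a tail that binds PDZ domains such as those of syntrophins. RefSeq places its start at 2 sites in the GRCr8 assembly. Both promoters are shown because the family was chosen by the levels of Dgkz. They run from 250 bases before to 50 bases after each start, 5′ to 3′ on the strand of the gene. Capitals mark the E-box CANNTG and the GC box GGGCGG, each searched on both strands.
Dgkz start site 1 (chr3:98391761-98392060): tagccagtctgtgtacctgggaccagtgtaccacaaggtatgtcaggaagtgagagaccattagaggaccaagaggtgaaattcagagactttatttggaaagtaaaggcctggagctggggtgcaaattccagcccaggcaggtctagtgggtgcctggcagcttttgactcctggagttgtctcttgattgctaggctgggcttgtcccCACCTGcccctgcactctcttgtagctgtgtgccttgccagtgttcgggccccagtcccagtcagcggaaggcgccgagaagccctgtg
Dgkz start site 2 (chr3:98389653-98389952): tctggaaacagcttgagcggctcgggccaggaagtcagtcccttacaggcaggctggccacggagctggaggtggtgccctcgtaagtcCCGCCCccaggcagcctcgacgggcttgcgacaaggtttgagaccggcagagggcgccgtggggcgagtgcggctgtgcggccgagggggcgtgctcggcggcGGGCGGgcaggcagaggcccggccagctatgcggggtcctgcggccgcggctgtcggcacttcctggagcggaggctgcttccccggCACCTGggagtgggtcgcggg
The upstream start site had 1 E-box, no GC box and 55.7% G and C. The second start site had 2 GC boxes, 1 E-box and 72.7% G and C, against a median of 51.7% over 33469 rat promoters. Of all those promoters, 33.1% held GGGCGG and 72.1% held CANNTG. The table lists a single transcript for Dgkz, so the start sites could not be measured separately, and the matches are a description of the letters alone.

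Before therapy both RA_0 libraries were close, Dgkz reaching 91.1 and 89.3 CPM. At 1 hour it stood at 82.4 and 77.7 CPM in the AP_1h libraries and at 43.6 and 33.7 CPM in the PLA_1h libraries. At 34 days the order was turned round, with 38.9 and 23.9 CPM in the AP_34d libraries and 114 and 111 CPM in the PLA_34d libraries. Acupuncture libraries were thus above placebo libraries at 1 hour and below them at 34 days, with no overlap at either time. The same was true of 209 of the 10259 transcripts tested (2.04%), and nothing is read from this since Dgkz was picked for it. All 4 libraries of PLA_1h and AP_34d lay below all 6 of the others, which held for 39 of the transcripts tested (0.380%). Dgkz was picked for its low levels in these groups, so nothing is read from this share either.

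The group means of Dgkz ran from 112 ± 1.57 CPM (SD, n = 2) at PLA_34d through 90.2 ± 1.32 at RA_0, 80.02 ± 3.33 at AP_1h and 38.7 ± 7.02 at PLA_1h to 31.4 ± 10.6 at AP_34d. The lowest groups, PLA_1h and AP_34d, overlapped. AP_1h and RA_0 did not overlap in their 2 libraries each, but their counting intervals did, reaching 88.4 CPM at AP_1h and starting at 82.2 CPM at RA_0. These are 95% Poisson intervals, which cover counting error only.

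The 4 low libraries held 440, 192, 199 and 160 reads of Dgkz, and the 6 others held 382 to 1012 reads. On the scale of log2(CPM + 1), the difference from RA_0 was -0.17 at AP_1h, -1.21 at PLA_1h, -1.53 at AP_34d and 0.31 at PLA_34d, each with a standard error of 0.30 from limma. Acupuncture minus placebo was 1.04 at 1 hour and -1.85 at 34 days. These 6 differences share libraries, RA_0 entering 4 of them. In bulk muscle, fewer cells of a type and less RNA per cell cannot be told apart.

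**Figure D1:**
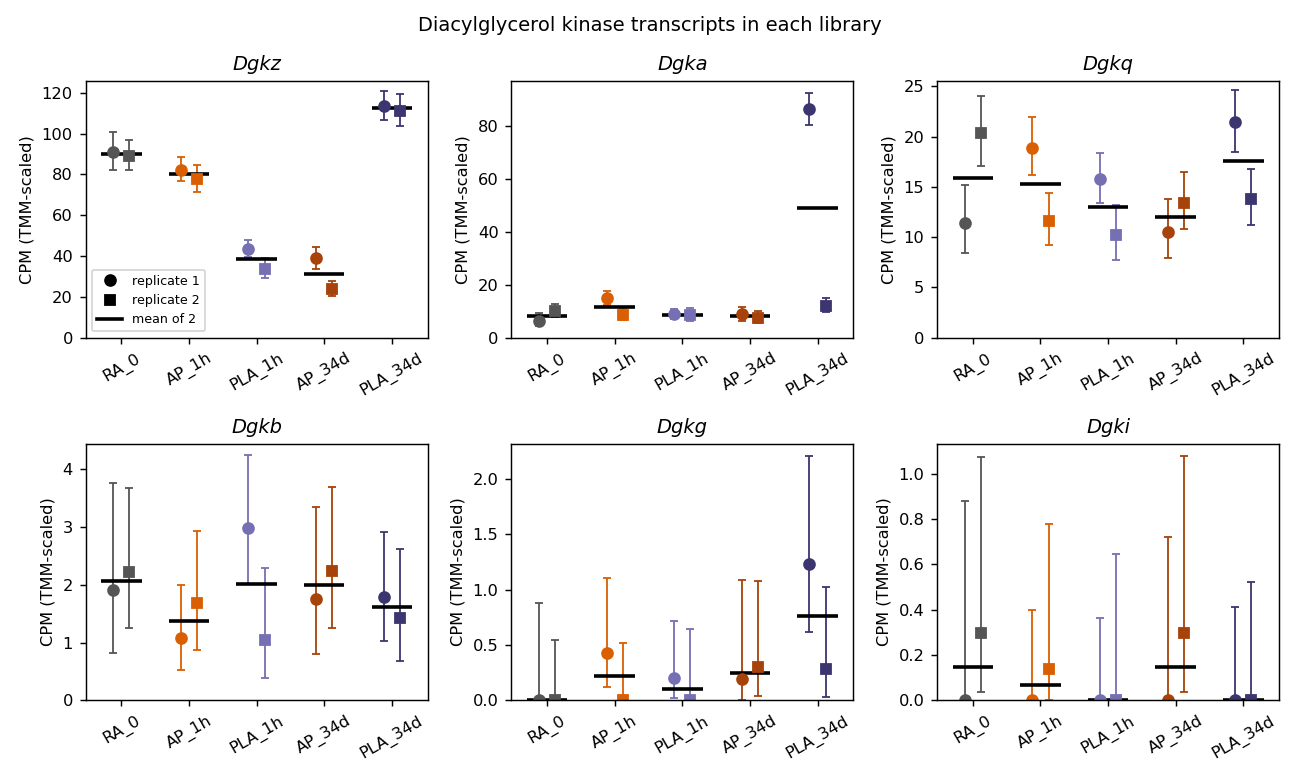
Level of each measured diacylglycerol kinase in CPM (vertical axes, separate for each gene) in the 2 libraries of RA_0, AP_1h, PLA_1h, AP_34d and PLA_34d, with 95% Poisson intervals as bars and the mean of 2 libraries as a black line. Dgkz lies between 23.9 and 43.6 CPM in the 4 libraries of PLA_1h and AP_34d and between 77.7 and 114 CPM in the 6 others, while Dgka stands out in 1 library of PLA_34d, at 86.1 CPM.

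No marker list separated the low libraries of Dgkz from the others. Skeletal muscle markers summed to 151071 to 318265 CPM in the 4 low libraries against 122361 to 326472 CPM in the 6 others. Slow fibre markers summed to 1997 to 11863 CPM against 1027 to 21084, and fast fibre markers to 109060 to 191911 CPM against 69201 to 171848. The ranges also overlapped for T cells, B cells, macrophages, Schwann cells and axons, endothelium and vessel wall, adipocytes and keratinocytes.

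In none of the 4 genes whose annotated span lies within 150 kb of Dgkz did its low libraries lie apart from the others. Mdk, which encodes the growth factor midkine, lies 1375 bases away and was at 0.598 to 1.39 CPM in the 4 low libraries of Dgkz and at 0.700 to 2.52 CPM in the others. Ambra1, a regulator of autophagy 13936 bases away, was at 39.5 to 50.5 against 36.9 to 56.4 CPM. Creb3l1, a membrane-bound transcription factor 18545 bases away, was at 4.48 to 10.9 against 3.82 to 9.84 CPM. Chrm4, a muscarinic receptor gene 2996 bases away, was at 0 to 0.175 CPM against 0 to 0.108 CPM, below the level required for testing. At the levels of Mdk and Chrm4 a fall like that of Dgkz could be missed.

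Dgka (diacylglycerol kinase alpha, NM_080787, rn4 chromosome 7, 2018858 to 2045336, minus strand) belongs to the calcium-binding members of the family and is abundant in T lymphocytes. Its promoter is shown beside those of Dgkz because Dgka varied more than most transcripts, with its highest value in a single library of PLA_34d. Capitals here mark E-boxes and CCAAT boxes, the latter found in 37.5% of all promoters.
Dgka start site (chr7:1759520-1759819): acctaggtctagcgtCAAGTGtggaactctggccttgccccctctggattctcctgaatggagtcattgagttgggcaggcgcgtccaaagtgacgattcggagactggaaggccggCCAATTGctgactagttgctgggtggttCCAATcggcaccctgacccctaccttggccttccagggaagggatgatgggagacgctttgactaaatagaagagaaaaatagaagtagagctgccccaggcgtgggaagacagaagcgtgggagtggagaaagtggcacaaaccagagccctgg
It had 2 E-boxes, 2 CCAAT boxes and no GC box, and an E-box overlaps a CCAAT box in the run CCAATTG. Among the 10 promoters RefSeq gives for the 9 members, 6 held a GC box, 9 an E-box and 2 a CCAAT box.

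The RA_0 libraries held Dgka at 6.44 and 9.95 CPM, those of AP_1h at 14.8 and 8.68 CPM and those of PLA_1h at 8.82 and 8.60 CPM. At 34 days it stood at 8.79 and 7.62 CPM in the AP_34d libraries and at 86.1 and 12.1 CPM in the PLA_34d libraries. Replicate 1 of PLA_34d, with 768 reads of Dgka, was 5.82-fold above the highest of the other 9 libraries. Of all transcripts tested, 1952 (19.0%) were highest in that library. The 8 libraries of the other groups ran from 6.44 to 14.8 CPM, and the other PLA_34d library lay within that range.

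Over the 2 PLA_34d libraries Dgka averaged 49.1 ± 52.4 CPM (SD, n = 2), against 8.20 ± 2.48 at RA_0 and 8.20 ± 0.828 at AP_34d. The log2 difference from RA_0 was 1.90 ± 0.70 (SE), with a limma p of 0.0213 that did not pass after Benjamini-Hochberg adjustment (adjusted p of 0.914). AP_34d minus PLA_34d was -1.88 ± 0.70, with a limma p of 0.0226 and an adjusted p of 0.846. PLA_34d minus PLA_1h was 1.798 ± 0.70, with a limma p of 0.0276 and an adjusted p of 0.999. All of these rest on the library with high lymphocyte markers. Leaving that library out brought AP_34d minus PLA_34d to -0.51, while leaving out PLA_34d replicate 2 instead took it to -3.25 (limma adjusted p = 0.00469), a fit that called 4.14% of the transcripts it tested. The same steps brought PLA_34d minus RA_0 to 0.54 and to 3.27.

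**Figure D2:**
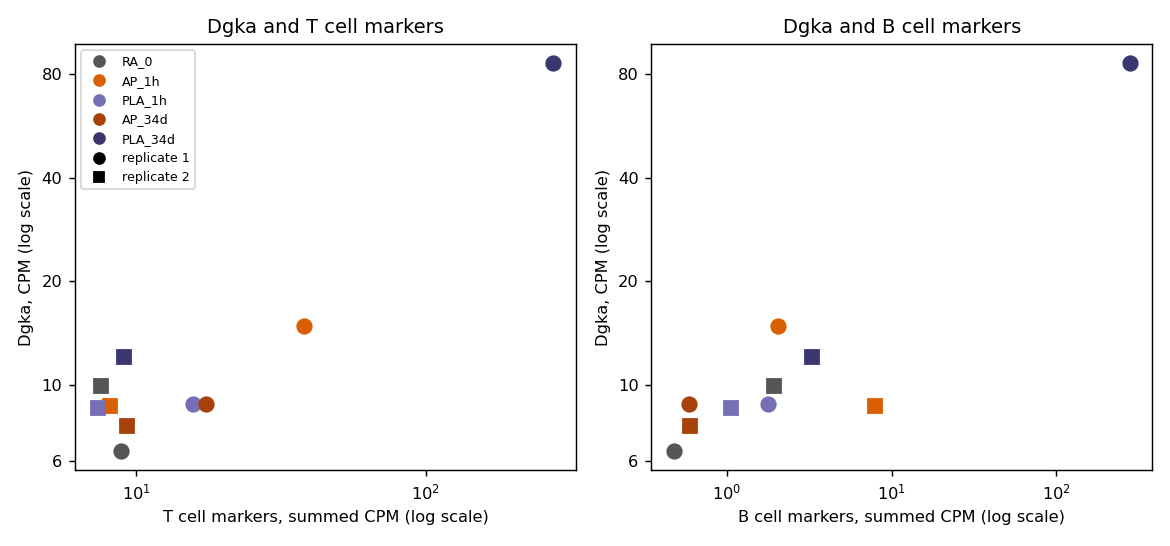
Dgka in CPM (vertical axes, log scale) against the summed CPM of T cell markers (left) and B cell markers (right), both on log scales, with 1 point per library coloured by group and shaped by replicate. Replicate 1 of PLA_34d is alone at the top right, at 86.1 CPM of Dgka, 276 CPM of T cell markers and 280 CPM of B cell markers, and the 9 other libraries lie at or below 14.8 CPM of Dgka.

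The part of these lymphocyte markers in the level of Dgka was not tested. AP_1h replicate 1, second in Dgka at 14.8 CPM, was also second in T cell markers at 37.9 CPM. In B cell markers AP_1h replicate 2 was second at 7.98 CPM, with Dgka at 8.68 CPM, while AP_1h replicate 1 had 2.05 CPM. PLA_34d replicate 2, next in Dgka at 12.1 CPM, had 9.10 CPM of T cell markers and 3.27 CPM of B cell markers. Both lay within the range of the other libraries. Dgka overlaps the melanocyte gene Pmel by 141 bases on the other strand, and whether counting used the strand is not given in the sources used here. Pmel did not exceed 0.595 CPM in any library.

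Dgkq (diacylglycerol kinase theta, NM_001198804, rn4 chromosome 14, 1600193 to 1614154, plus strand) is the only member of its structural type, with an added cysteine-rich domain. Its libraries read 11.5 and 20.3 CPM before therapy, 18.9 and 11.6 CPM in AP_1h and 15.8 and 10.2 CPM in PLA_1h. At 34 days it stood at 10.5 and 13.4 CPM in the AP_34d libraries and at 21.4 and 13.8 CPM in the PLA_34d libraries. The spread within groups was as wide as that between them, and AP_34d against PLA_34d was the only one of 8 comparisons without overlap, all libraries of AP_34d lying lower. That log2 difference was -0.50, with a 95% interval of -1.40 to 0.41, and its limma adjusted p was 0.904. Dgkq had 1092 reads over the 10 libraries.

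Dgkb (diacylglycerol kinase beta, NM_019304, rn4 chromosome 6, 56715327 to 57479656, plus strand) is a calcium-binding form best known from brain. It was near the lower limit of testing, with 1.91 and 2.23 CPM before therapy, 1.08 and 1.68 CPM in AP_1h and 2.97 and 1.05 CPM in PLA_1h. At 34 days it stood at 1.76 and 2.24 CPM in the AP_34d libraries and at 1.79 and 1.42 CPM in the PLA_34d libraries. These values rest on 131 reads in all, 6 to 30 per library. Log2 differences over the 8 comparisons ran from -0.38 to 0.34. The libraries of AP_1h lay below those of RA_0, with a log2 difference of -0.38, a 95% interval of -1.29 to 0.54 and a limma adjusted p of 0.839.

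Dgkg (diacylglycerol kinase gamma, NM_013126, rn4 chromosome 11, 80623184 to 80814779, plus strand), another calcium-binding form, had 22 reads over all libraries. Of these, 11 came from PLA_34d replicate 1, the library with high lymphocyte markers, where it reached 1.23 CPM. In the other libraries it ran from 0 to 0.432 CPM, with 4 of them at 0. A count of 0 allows up to 0.297 to 0.716 CPM, depending on the library, taken as 3 reads.

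Dgki (diacylglycerol kinase iota, NM_198782, rn4 chromosome 4, 64207192 to 64663627, minus strand), the closest relative of Dgkz, had 5 reads. They fell in 3 libraries, RA_0 replicate 2, AP_1h replicate 2 and AP_34d replicate 2, and 7 libraries were at 0. At this depth no difference of Dgkg or Dgki between groups was detectable.

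With Dgkz set aside, limma called 0 of the 3 remaining tested members at an adjusted p under 0.05 in each of the 8 comparisons, in the interaction of therapy and time and in an F-test over all 5 groups. The background was as sparse: 3 of 10259 transcripts (0.0292%) were called for AP_1h against RA_0 and 0 (0%) in every other comparison. At an unadjusted p under 0.05, 1 member was reached, Dgka, for PLA_34d against RA_0 (3.20% of all transcripts), AP_34d against PLA_34d (5.47%), PLA_34d against PLA_1h (2.96%) and the interaction (4.05%). It was reached by 0 members for AP_1h against RA_0 (8.89%), PLA_1h against RA_0 (2.59%), AP_34d against RA_0 (4.77%), AP_1h against PLA_1h (4.04%) and AP_34d against AP_1h (5.35%). DESeq2 on the recovered reads called Dgka for AP_34d against PLA_34d, at a log2 difference of -2.57 and an adjusted p of 0.0371, and in its test over all groups. In that comparison DESeq2 called 90 of 10060 transcripts (0.895%). Voom and edgeR called no member. The limma F-test gave adjusted p values of 0.987 for Dgka, 0.990 for Dgkb and 0.987 for Dgkq.

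How often both libraries of a group lay apart from both of the other group was near the share over all transcripts. It held for Dgkb, lower, in AP_1h against RA_0 (41.6% of all transcripts lay apart in either direction) and, higher, in AP_34d against AP_1h (33.1%). In PLA_34d against RA_0 it held for Dgka, higher, and Dgkb, lower (31.0%), in AP_34d against PLA_34d for Dgka and Dgkq, both lower (31.0%), and in PLA_34d against PLA_1h for Dgka, higher (27.2%). It held for 0 of them in PLA_1h against RA_0 (29.4%), AP_34d against RA_0 (32.3%) and AP_1h against PLA_1h (30.6%).

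Among all transcripts tested, the SD of log2(CPM + 1) over the 10 libraries of Dgkz was at the 91.9 percentile and that of Dgka at the 96.7 percentile. Nothing is read from the rank of Dgkz, which was picked for its low levels in some of these libraries. The SD of Dgka takes in PLA_34d replicate 1, at 86.1 CPM against 6.44 to 14.8 CPM in the other libraries. Dgkq was at the 41.8 percentile and Dgkb at the 21.9 percentile. Dgkz, Dgka and Dgkq correlated positively with each other, while Dgkb, with only 6 to 30 reads per library, did not follow them closely. Pearson's r of log2(CPM + 1) over 10 libraries was 0.48 between Dgkz and Dgka (Spearman's rho 0.58), and 0.49 between Dgkz and Dgkq (rho 0.58). Without PLA_34d replicate 1 these went to 0.41 and 0.37. Between Dgka and Dgkq, r was 0.65 (rho 0.78), and 0.60 over the 9 libraries left without PLA_34d replicate 1. No background of r over other pairs of transcripts was set beside these values, so shared regulation is not read from them. Between Dgkb and each of the others r lay between -0.18 and 0.21, but without PLA_34d replicate 1 that of Dgkb and Dgka went from -0.12 to -0.48. These are descriptions over libraries that share the authors' scaling, and levels were not compared between genes because CPM does not account for transcript length.

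Of 8142 transcripts averaging at least 5 CPM, the 5 whose log2(CPM + 1) followed Dgkz most closely over 10 libraries were Ilf2, Polm, Septin8, Hyal3 and Aga. Ilf2 had a Pearson r of 0.88 (Spearman's rho 0.59) and was at 16.1 to 19.1 CPM in the 4 low libraries of Dgkz against 20.8 to 23.2 CPM in the others. Polm, a DNA polymerase of end joining, had an r of 0.87 (rho 0.92) and was at 3.88 to 10.7 against 11.2 to 23.7 CPM. Septin8, a cytoskeletal GTP-binding protein, had an r of 0.87 (rho 0.87) and was at 20.5 to 29.9 against 31.3 to 45.9 CPM. In these 3 the low libraries did not overlap the others, as in 39 of the 10259 transcripts tested (0.380%). They were picked by their r with Dgkz, so nothing is read from this. For Hyal3, a member of the hyaluronidase family, r was 0.85 (rho 0.84), and for Aga, a lysosomal enzyme that trims glycoproteins, r was 0.84 (rho 0.79), and in both the ranges overlapped.

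The 3 transcripts running most opposite to Dgkz were Eif4b, Polr1a and Palmd. Eif4b, a translation initiation factor, had an r of -0.96 (rho -0.96) and was at 418 to 531 CPM in the 4 low libraries of Dgkz against 331 to 403 CPM in the 6 others. Polr1a, the largest subunit of RNA polymerase I, had an r of -0.91 (rho -0.88) and was at 46.1 to 58.0 against 30.6 to 41.5 CPM. Palmd, which encodes palmdelphin, had an r of -0.91 (rho -0.93) and was at 85.5 to 134 against 40.8 to 73.5 CPM. In each of these 3 the low libraries of Dgkz lay above all others. That follows from how they were picked, and the share of all transcripts lying above was not computed. Without the 2 AP_34d libraries (n = 8), r was -0.94 for Eif4b, -0.93 for Polr1a and -0.82 for Palmd, and 0.66 to 0.79 for the 5 genes above. Since the levels of Dgkz fell into 4 low and 6 high libraries, these r values chiefly describe that split.

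**Figure D3:**
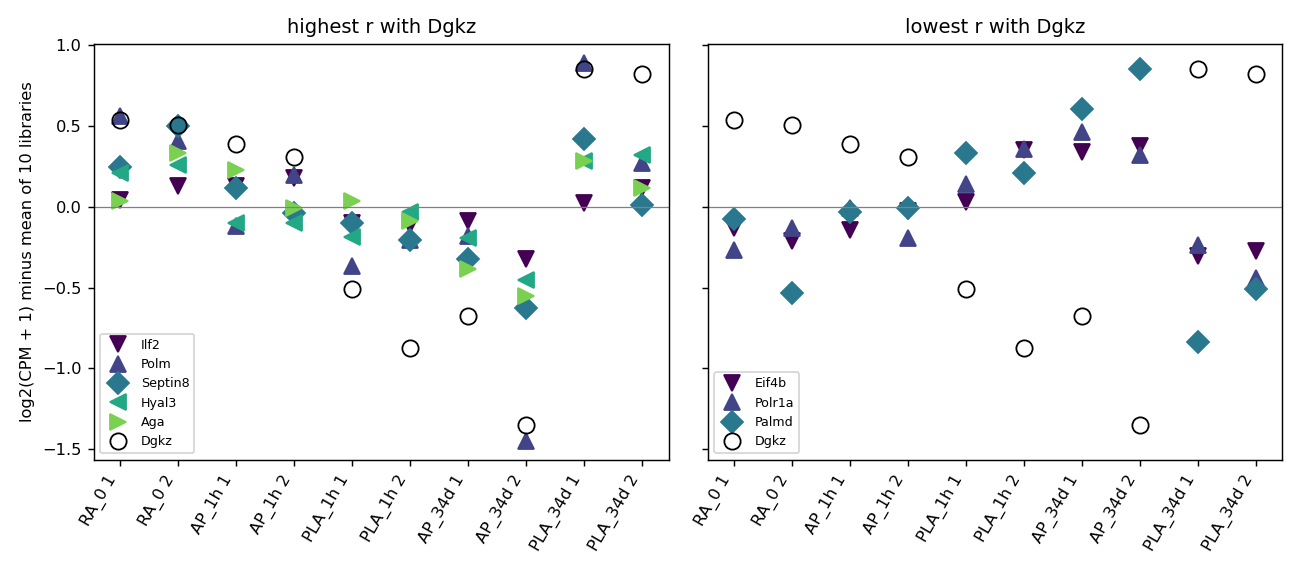
Level in each library as log2(CPM + 1) minus the mean of that gene over 10 libraries (vertical axis) for Dgkz (open circles) beside the 5 transcripts with the highest Pearson r (left) and the 3 with the lowest (right). Eif4b, Polr1a and Palmd lie above their means in the 4 libraries of PLA_1h and AP_34d, where Dgkz is lowest, as follows from how they were picked. Dgkz spans a wider range than most of the genes that follow it.

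The rest of the diacylglycerol pathway was read through 5 lists, of which 62 transcripts passed the filter. At an adjusted p under 0.05 limma called 0 of them in any comparison, and the smallest adjusted p was 0.254. At an unadjusted p under 0.05 in the F-test over all groups, 5 of 62 passed (511 of 10259, or 4.98%, of all transcripts did): 0 of 11 phospholipase C transcripts, 1 of 13 diacylglycerol receptors, 3 of 26 other enzymes of diacylglycerol and phosphatidic acid, 0 of 4 other lipid kinases and 1 of 8 partners of Dgkz.

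The receptors of diacylglycerol carry its signal onward. In their list Rasgrp2, which encodes a calcium-regulated activator of Rap1, stood at 9.54 and 8.02 CPM at RA_0, 17.4 and 21.1 at AP_1h, 6.54 and 6.32 at PLA_1h, 7.23 and 5.68 at AP_34d, and 35.4 and 10.7 at PLA_34d. Its acupuncture libraries were higher than its placebo libraries at 1 hour and lower at 34 days, without overlap, as were those of 2.04% of all transcripts. The interaction of therapy and time was -2.92 ± 0.67 (SE) in log2 units, with an unadjusted limma p of 0.00137 and an adjusted p of 1.00. Its highest library was again PLA_34d replicate 1, and so were those of Prkch at 31.4 CPM (11.6 to 21.0 in the others) and Prkd2 at 32.3 CPM (4.78 to 10.97 in the others), both kinases that bind diacylglycerol. The receptor list also holds Unc13d, whose binding of diacylglycerol is not established, at a log2 difference of -2.14 for AP_34d against PLA_34d. In that comparison 0 of the 13 listed transcripts were higher and 4 were lower at an unadjusted limma p under 0.05 (5.47% of all transcripts passed in either direction). The median log2 difference of the list was -0.67 against 0.0027 over all transcripts. The part of the lymphocyte markers of PLA_34d replicate 1 in this was not tested.

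Phospholipase C isoforms are the main makers of signalling diacylglycerol, but their list of 11 also held the inactive relatives Plcl1 and Plcl2. It showed most unadjusted calls at AP_1h against RA_0, where 1 of 11 was higher and 3 were lower (8.89% of all transcripts passed in either direction). The lower 3 were Plcl2, Plce1 and Plcd1, and the largest rise was that of Plcl1, at a log2 difference of 1.45. Plcl2, a family member that lacks catalytic activity, was at 69.3 and 86.9 CPM at AP_1h against 124 and 121 CPM at RA_0, a log2 difference of -0.65 (limma adjusted p = 0.531). Plce1 and Plcd1, both active enzymes, had F-test p values of 0.138 and 0.161 in limma. In the comparisons in which Dgkz was low, 1 of 11 was lower at an unadjusted p under 0.05 for PLA_1h against RA_0 (2.59% of all transcripts passed), namely Plce1 at a log2 difference of -0.76 (limma adjusted p = 1.00), and 0 of 11 passed for AP_34d against RA_0 (4.77% of all transcripts).

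Of the enzymes that make or use diacylglycerol and phosphatidic acid by other routes, Gpam, the mitochondrial enzyme that starts glycerolipid synthesis, was at 32.7 and 60.4 CPM at RA_0 and 9.62 and 20.9 CPM at AP_1h. It was between 34.7 and 56.9 CPM in the 6 remaining libraries. Its AP_1h libraries lay below all others, and the log2 difference from RA_0 was -1.58 ± 0.41 (SE, limma adjusted p = 0.254). Agpat9, an acyltransferase of the endoplasmic reticulum, was at 22.7 and 19.9 CPM at AP_34d and 5.30 to 12.9 CPM elsewhere, without overlap, with an F-test p of 0.0438 in limma (adjusted p = 0.987). Gpam and Agpat9 were named for their small F-test p, so nothing is read from groups that lie apart. Between pairs of groups, 27.2% to 41.6% of all transcripts lay apart, and the share for 1 group against all others was not computed.

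Ppap2a, a phosphatase that turns phosphatidic acid back into diacylglycerol and so opposes the kinases, was at 38.2 and 68.8 CPM at RA_0. It was at 135 and 98.7 CPM at AP_1h, 139 and 109 CPM at PLA_1h, 125 and 89.8 CPM at AP_34d and 45.4 and 90.3 CPM at PLA_34d. Its 6 libraries of AP_1h, PLA_1h and AP_34d lay above both RA_0 libraries, and the log2 differences from RA_0 were 1.16, 1.25 and 1.03, with limma adjusted p values of 0.446, 1.00 and 0.967. In these comparisons 41.6%, 29.4% and 32.3% of all transcripts lay apart in either direction. Ppap2a too was named for its small F-test p, so nothing is read from this.

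Among the lipid kinases that share the catalytic fold, Sphk1, a sphingosine kinase, was highest in PLA_34d replicate 1 (7.85 CPM), followed by AP_1h replicate 1 (4.32 CPM), and was at 0.594 to 1.37 CPM in the other 8 libraries. Sphk2 ran from 15.5 to 42.6 CPM and Agk, the acylglycerol kinase of mitochondria, from 8.98 to 17.8 CPM. None of these 3 passed the F-test in limma, with p values of 0.256 to 0.348. Among the known partners of Dgkz, Utrn, the dystrophin relative utrophin, was highest at PLA_34d, at 59.6 and 30.6 CPM, against 13.2 to 28.1 CPM in the other 8 libraries, with a limma F-test p of 0.0299 and an adjusted p of 0.937. Utrn was named for that small F-test p, so nothing is read from its highest group. Rb1, the retinoblastoma protein, ran from 59.2 to 127 CPM, and Rac1, a small GTPase, from 91.6 to 140 CPM, with limma F-test p values of 0.103 and 0.463.

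**Figure D4:**
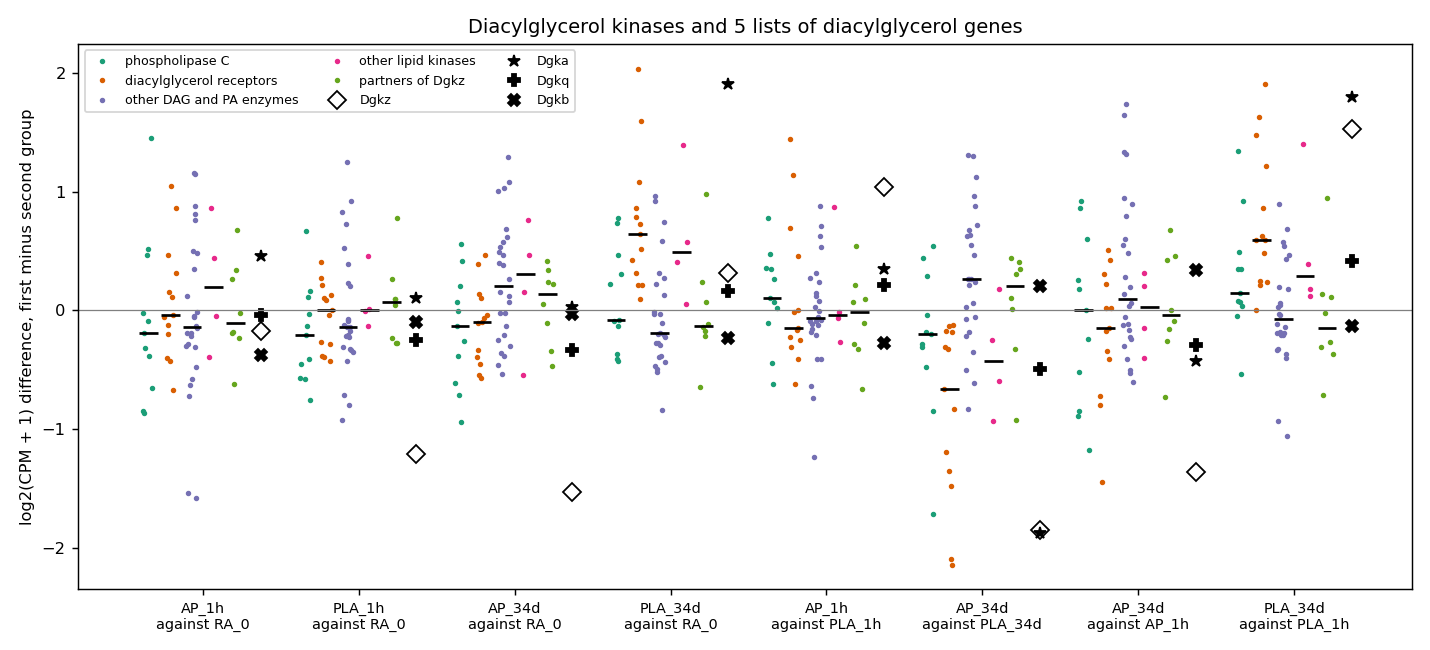
Log2(CPM + 1) difference, first minus second group, of each tested transcript of 5 diacylglycerol lists (coloured points, black lines at list medians) and of the tested kinases (black symbols) in 8 comparisons. Dgkz lies at -1.21, -1.53 and -1.85 for PLA_1h against RA_0, AP_34d against RA_0 and AP_34d against PLA_34d, as follows from how it was chosen, and Dgka reaches 1.90 for PLA_34d against RA_0.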

How the data were processed

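Total RNA of muscle was made into 10 TruSeq libraries. The authors demultiplexed reads with CASAVA 1.8.2, trimmed them with cutadapt 1.2.1, aligned them to rn4 with Bowtie2 2.1.0, which places no read across a splice junction, and counted them per transcript with HTSeq 0.5.4p3. Versions are taken from the submitters' processing notes. The deposited values are a signal in CPM, which the authors scaled by TMM in edgeR 3.4.2; 100% of values came out as whole reads (within 0.01 read), so reads per library could be recovered.

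Here log2(CPM + 1) of 10259 transcripts (at least 1 CPM in both libraries of a group) was fitted in limma 3.58.1 (R 4.3.3) with 1 mean per group, a mean trend and Benjamini-Hochberg adjustment at 0.05, giving 5 residual and 5.14 prior degrees of freedom. Alternatives were voom, edgeR 4.0.16 and DESeq2 1.42.0 on recovered reads, other scalings, filters and pseudocounts, fits of the compared groups alone, a replicate block, and leaving out each library. The analysis was tested on simulated data. Promoters came from RefSeq (GRCr8), with all 9 members matched by symbol.

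Members and lists were chosen with earlier results of these data known. The text names all members, the 5 transcripts most like Dgkz and the 3 most opposite, and up to 3 genes per pathway list with the smallest F-test p. Marker lists were summed in CPM per library. Groups came from the sample titles.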

Additional observations from a re-analysis of the deposited data

Results flagged for a closer look

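Dgkz was chosen for its low levels at PLA_1h and AP_34d, and the opposite directions below follow from that choice and are given as values alone. Acupuncture minus placebo was 1.04 in log2(CPM + 1) at 1 hour and -1.85 at 34 days, with both acupuncture libraries above both placebo libraries at the first time and below them at the second. AP_34d minus AP_1h was -1.36 and PLA_34d minus PLA_1h was 1.53. These differences between groups were not tested, and the values share libraries with each other. With 2 libraries a group, no formal search for single samples far from their group was made. PLA_34d replicate 1 stood apart in its lymphocyte markers, as described above.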

How the results depend on the processing

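Each value was recomputed under up to 23 alternatives. Dgkz kept its direction in all 207 recomputed differences. Of these, 5 moved by more than the spread between replicates, all for AP_1h or PLA_34d against RA_0 under other scalings. Under plain totals the median log2 difference of all transcripts was 0.15 for AP_1h and 0.23 for PLA_34d against RA_0. With the 20 most abundant transcripts left out of the totals it was 0.12 and 0.15, and under quantile normalization 0.0064 and -0.049. The range of Dgkz was -1.39 to -1.03 for PLA_1h against RA_0, -1.87 to -1.19 for AP_34d against RA_0, 0.86 to 1.22 for AP_1h against PLA_1h and -2.19 to -1.51 for AP_34d against PLA_34d. The count of other members called rose from 0 to 1, Dgka, under DESeq2 for AP_34d against PLA_34d and in the test over all groups, with 3 members tested, and the cause was not tested. Leaving out 1 library at a time gave 0 to 1 for PLA_34d against RA_0, AP_34d against PLA_34d, PLA_34d against PLA_1h, the interaction and the F-test. The 1 was again Dgka, without PLA_34d replicate 2, a fit in which PLA_34d is the single library with high lymphocyte markers and takes its spread from the remaining groups. Its adjusted p over all alternatives ran from 0.00457 to 1.00 for PLA_34d against RA_0. With the replicate number as a block, 0 members were called in any comparison. The numbers did not pair the samples: over 10 pairs of groups the differences between replicates correlated at -0.46 to 0.45, 6 of them below 0.

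Small differences turned direction. AP_34d against RA_0 became 0.0345 for Dgkb under quantile normalization, and for Dgka -0.0389 under voom, -0.0275 under edgeR and -0.0217 under DESeq2. AP_1h against RA_0 became 0.11 for Dgkq with plain totals and 0.0746 with the 20 most abundant transcripts left out of the totals; the cause was not tested. Leaving out 1 library at a time, Dgkb ran from -0.58 to 0.38 for PLA_1h against RA_0, -0.15 to 0.0809 for AP_34d against RA_0, -0.75 to 0.20 for AP_1h against PLA_1h, -0.61 to 0.34 for PLA_34d against PLA_1h and -0.0013 to 0.95 for the interaction. Dgka ran from -0.17 to 0.38 for PLA_1h against RA_0, -0.25 to 0.30 for AP_34d against RA_0 and -0.0051 to 0.70 for AP_1h against PLA_1h. Dgkq ran from -0.43 to 0.35 for AP_1h, -0.64 to 0.14 for PLA_1h, -0.73 to 0.0527 for AP_34d and -0.23 to 0.55 for PLA_34d against RA_0, -0.12 to 0.54 for AP_1h against PLA_1h and -0.63 to 0.0339 for AP_34d against AP_1h. None of these turned differences was called. With 2 libraries a group and at most 10.1 reads to 1 CPM, changes in Dgkb, Dgkg and Dgki could not be measured closely.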
